A study of Mus musculus with 24 samples.

Results

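The genes described here encode the enzymes that remove hydrogen peroxide and lipid peroxides in C2C12 cells, an established mouse myoblast line: the 6 peroxiredoxins *Prdx1* to *Prdx6*, thioredoxin (*Txn1*), catalase (*Cat*) and the glutathione peroxidases *Gpx1* and *Gpx4*. They were chosen by name, 10 of the 55291 gene symbols in the count table, and all 10 passed the filter on low counts in every comparison. RNA-seq was made from stable cells that carried a lentiviral shRNA and had been selected with puromycin. They are called 4 lines here, with a scrambled shRNA (scr) or shRNA against *Baf180*, *Baf250a* or *Brd9* (KD, knockdown). Each target is a subunit particular to a form of the SWI/SNF chromatin remodeller. Each line was grown for 48 h without added metal (NT), with 100 µM CuSO4 or with 50 µM ZnSO4, and each of the 12 conditions had 2 replicates, which the methods call independent biological replicates, 24 libraries in all. The shRNA vector and the selection are therefore shared by every group, and each KD is represented by a single selected line.

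Hydrogen peroxide is a by-product of respiration, protein folding in the endoplasmic reticulum and superoxide dismutation, and it serves both as a signal and as a source of damage. Peroxiredoxins reduce it with a reactive cysteine that most of them regenerate through thioredoxin, glutathione peroxidases use glutathione, and catalase breaks it down directly inside peroxisomes. Copper and iron react with hydrogen peroxide to give hydroxyl radicals, and many genes of these systems are known targets of NRF2, the transcription factor of the antioxidant response.

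*Gpx1* and *Gpx4* are selenoproteins, in which a UGA codon that would otherwise stop translation is read as selenocysteine, the catalytic residue. The codon is shown in its coding context because it sets these 2 members apart from the other 8. Capitals mark the selenocysteine codon, written as TGA, with 21 bases on each side from the GENCODE M21 transcripts of GRCm38.
*Gpx1*: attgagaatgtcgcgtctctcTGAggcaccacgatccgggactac
*Gpx4*: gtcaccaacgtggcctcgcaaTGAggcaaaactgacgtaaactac
The *Gpx1* stretch lies at chr9:108339430-108339474 on the + strand, in exon 1 of 2 of transcript Gpx1-201, where the codon is number 47 of the coding sequence. The *Gpx4* stretch lies at chr10:80054716-80054760 on the + strand, in exon 3 of 7 of Gpx4-201. GC content was taken from the longest annotated transcript of each gene. By this measure these genes are GC-rich: 60.2% of the bases of *Gpx4* and 57.2% of those of *Gpx1* are G or C, with *Prdx5* at 56.4%. *Prdx1* has 42.3%, and the median is 49.2% over the 16524 genes that passed the filter over all libraries.

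The counted totals ran from 495778 to 75179394 per library (median 22158430). *Baf250a* KD Zn replicate 2 was the shallow library and had between 30 and 168 counts on each member, while the next lowest total was 12719173. The targeted genes were lower in their own untreated KD line: *Pbrm1*, which encodes Baf180, had 65.8 and 75.7 CPM (counts scaled to library size with TMM factors) in *Baf180* KD against 143 and 99.9 in scr, *Arid1a*, which encodes Baf250a, had 100 and 98.8 CPM in *Baf250a* KD against 283 and 292, and *Brd9* had 17.9 and 17.0 CPM in *Brd9* KD against 27.2 and 32.4. Of 10 markers of other cell types, 4 passed the filter, and the level of all 10 summed to 73.9 to 125 CPM in scr and 42.1 to 54.3 CPM in *Baf180* KD. In untreated scr that sum was mostly *Tubb3*, a neuronal tubulin, with 103 and 113 CPM against 11.6 and 12.2 in untreated *Baf180* KD, while 2 of the 4 tested markers were higher there, among them *Pdgfra*, a mesenchymal receptor (5.54 and 4.64 CPM against 25.3 and 23.5). Of the rest of the list, *Ptprc* (leukocytes), *Cdh5* (endothelium) and *Sox10* (glia) had at most 0.206 CPM in these 4 libraries. Over all 24 libraries *Epcam*, *Krt8* and *Pecam1* had at most 0.377 CPM. *Cd68* was present in every library, with 2.96 to 6.22 CPM, and so was *Dcn*, with 1.29 to 26.2 CPM. The 9 markers of differentiated muscle summed to 93.9 and 95.3 CPM in untreated scr, 173 and 156 in *Baf180* KD, 74.6 and 65.8 in *Baf250a* KD and 38.7 and 35.5 in *Brd9* KD, with 6 of 9 tested higher in *Baf180* KD and 5 of 6 tested lower in *Brd9* KD, while 2 of 6 were higher and 2 lower in *Baf250a* KD. The 7 myoblast markers summed to 2820 to 3960 CPM in scr, 1790 to 2000 in *Baf180* KD, 1400 to 1540 in *Baf250a* KD and 1920 to 2360 in *Brd9* KD. *Des* had the highest median of them (1170 CPM), and the markers did not move together. By condition means, *Des*, *Cdh15*, *Chrna1* and *Myf5* were highest in an scr condition. *Myod1* was highest in untreated *Baf250a* KD, *Pax7* in untreated *Brd9* KD and *Musk* in untreated *Baf180* KD. Fewer cells of a type and less RNA per cell cannot be told apart in bulk RNA. The part of these markers in the differences below was not tested. The dependence of counts on GC content also differed between libraries. A rise of 10 percentage points in GC went with a change in log2 expression that was lowest at -0.34 (replicate 2 of scr Zn) and highest at 0.32 (replicate 2 of scr NT), relative to the mean over libraries.

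The members were expressed in every library, at levels spanning about an order of magnitude per kilobase of exon. *Txn1*, which encodes the cytosolic electron donor of the peroxiredoxins, was the most abundant, with 139 to 305 RPKM (RPKM, counts scaled to library size and to annotated exon length; median 225). *Prdx1* and *Prdx2*, the cytosolic 2-cysteine peroxiredoxins, had medians of 102 and 93.5 RPKM, and *Gpx4*, which reduces lipid peroxides in membranes, had 83.2. *Gpx1*, the main cytosolic glutathione peroxidase, had a median of 67.4 RPKM, *Prdx5*, found in mitochondria, peroxisomes and cytosol, 53.8, and mitochondrial *Prdx3* 52.6. *Prdx6*, a 1-cysteine enzyme that uses glutathione, had 37.6, *Prdx4* of the endoplasmic reticulum 25.7 and *Cat* 24.2. The ranges of neighbours in this order overlapped over the 24 libraries, except that every library of *Txn1* lay above every library of *Prdx1* (72.7 to 125 RPKM). Together the members took between 0.139% and 0.175% of the counts.

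The members differed in how far they moved across the 12 conditions. *Gpx1* varied most, with an SD of 0.343 over its condition means on the log2 CPM scale and a 2.26-fold span from scr Zn to untreated *Baf250a* KD, followed by *Cat* (SD 0.315, 1.88-fold from *Baf180* KD Zn to scr Cu). *Prdx3* varied least (SD 0.135, 1.39-fold). Reads that match several places were discarded by the authors. The pseudogenes *Gpx4-ps2* and *Prdx2-ps1* drew at most 967 and 402 counts in a library, so the counts of *Gpx4* and *Prdx2* are to that extent uncertain.

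**Figure D1:**
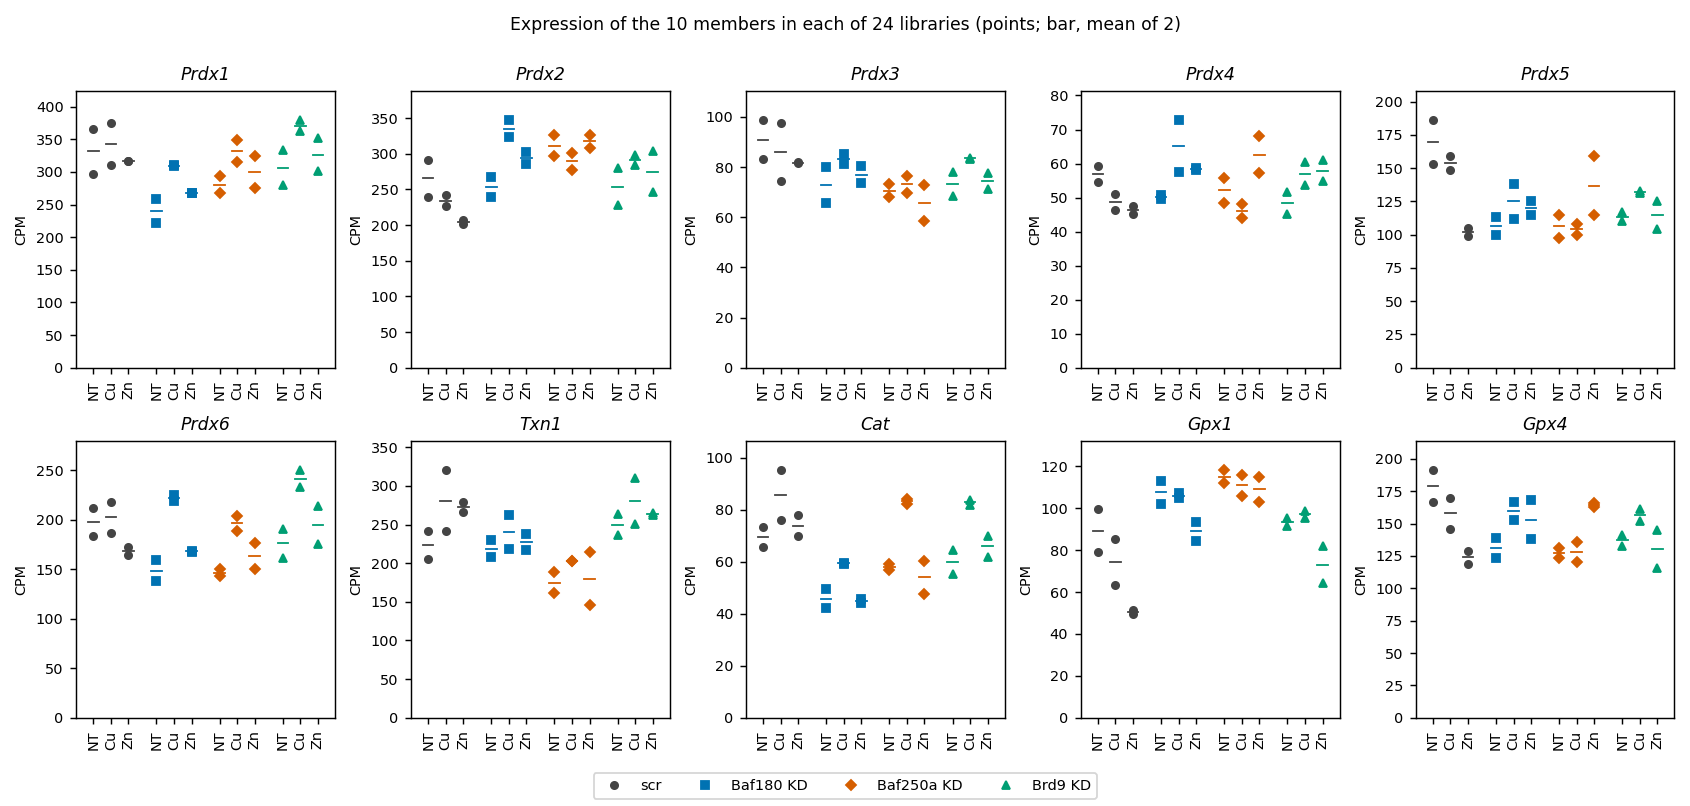
Expression of each member in CPM (vertical axes from 0) in the 4 cell lines with NT, Cu and Zn; points are libraries and bars the means of 2. *Cat* was lower in all 6 *Baf180* KD libraries (42.1 to 59.5 CPM) than in all 6 scr libraries (65.5 to 95.1 CPM), and *Gpx1* was lowest in scr Zn (51.5 and 49.6 CPM).

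The copper comparison asked which of these genes responded to excess Cu, and *Cat*, *Prdx6* and *Prdx1* rose in the mean over the 4 lines. Over the 8 NT libraries *Cat* ran from 42.1 to 73.4 CPM with a median of 57.9, and over the 8 Cu libraries from 59.3 to 95.1 CPM with a median of 82.1. The ranges overlapped across lines, but within each line both Cu libraries lay above both NT libraries. Averaged over the 4 lines, the log2 fold change of *Cat* (chr2:103453849-103485160, - strand) was 0.42 ± 0.06 (SE, adjusted p = 0.000106 in edgeR's quasi-likelihood test, Benjamini-Hochberg over all genes). A gene is called when this adjusted p is under 0.05. *Prdx6* (chr1:161240112-161251219, - strand) had 138 to 212 CPM without metal (median 160) and 187 to 250 CPM with Cu (median 218). Its mean log2 fold change was 0.37 ± 0.06 (adjusted p = 0.000236). *Prdx1* (chr4:116685544-116700822, + strand) rose by less, 0.23 ± 0.06 (adjusted p = 0.0199), from 221 to 366 CPM without metal to 309 to 379 CPM with Cu. These 3 were the members called of 10 in this comparison, where 7.86% of all genes tested were called. The fold changes of *Cat* and *Prdx6* stayed called when each of the 16 NT and Cu libraries was left out in turn. The call of *Prdx1* was lost without scr NT replicate 1, scr Cu replicate 1, *Baf180* KD NT replicate 2, *Baf250a* KD NT replicate 1, *Baf250a* KD Cu replicate 2, *Brd9* KD NT replicate 2 or *Brd9* KD Cu replicate 2, with values between 0.20 and 0.23.

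Line by line, *Prdx6* showed its rise in the KD lines. In *Baf180* KD it went from 159 and 138 CPM to 219 and 225 CPM, in *Baf250a* KD from 150 and 143 to 189 and 204, in *Brd9* KD from 191 and 162 to 233 and 250, and in scr from 184 and 212 to 218 and 187. Cu and NT libraries were thus apart in each KD line and overlapped in scr. Such separation held for 7, 5 and 9 of 10 members in *Baf180*, *Baf250a* and *Brd9* KD and for 2 in scr. The share of all genes with 2 and 2 libraries apart was not computed. The log2 fold change of *Prdx6* was 0.55 ± 0.08 in *Baf180* KD (adjusted p = 0.00675) and 0.42 ± 0.09 in *Baf250a* KD (adjusted p = 0.0153). It was 0.40 ± 0.10 in *Brd9* KD (adjusted p = 0.153) and 0.05 ± 0.10 in scr (adjusted p = 0.876), neither called. *Cat* had log2 fold changes of 0.31 in scr, 0.34 in *Baf180* KD, 0.52 in *Baf250a* KD and 0.41 in *Brd9* KD, of which the second and the third were called (adjusted p = 0.0409 and 0.00174). For *Prdx1* the value in *Baf180* KD was 0.34 and called (adjusted p = 0.0269). Not called were its values in scr (0.07, adjusted p = 0.848), *Baf250a* KD (0.24, adjusted p = 0.367) and *Brd9* KD (0.22, adjusted p = 0.286).

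In *Baf180* KD 4 of 10 members rose with Cu, *Prdx6*, *Prdx2* (0.37 ± 0.08), *Prdx1* (0.34 ± 0.08) and *Cat*, where 13.8% of all genes were called. In *Baf250a* KD 2 of 10 rose, *Cat* and *Prdx6*, where 1.27% of all genes were called. No member was called in *Brd9* KD (background 0.274%) or in scr (background 0.0333%) with edgeR. There were 3 members with an unadjusted p under 0.05 in *Brd9* KD and 1 in scr, and the share of all genes at that threshold was not computed. DESeq2 called 2 and 0 members, against 1.85% and 0.413% of all genes. Without *Baf180* KD NT replicate 2, the calls of *Prdx1* (0.26), *Prdx2* (0.32), *Prdx6* (0.47) and *Cat* (0.25) in *Baf180* KD were all lost. *Cat* lost its call there without any other of the 4 NT and Cu libraries too (0.34 to 0.44), *Prdx1* without either Cu library (0.34) and *Prdx2* without Cu replicate 1 (0.32). A correction for each library's trend of counts over GC content and exon length ended the calls of *Prdx2* (0.25, adjusted p = 0.0527) and *Cat* (0.26, adjusted p = 0.108) in that line and of *Prdx6* in *Baf250a* KD (0.40, adjusted p = 0.0633). In *Baf250a* KD, *Prdx6* lost its call without any 1 of the 4 NT and Cu libraries (0.35 to 0.45), and *Cat* without NT replicate 1 (0.49). DESeq2 called neither there (adjusted p = 0.563 for *Prdx6* and 0.576 for *Cat*).

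**Figure D2:**
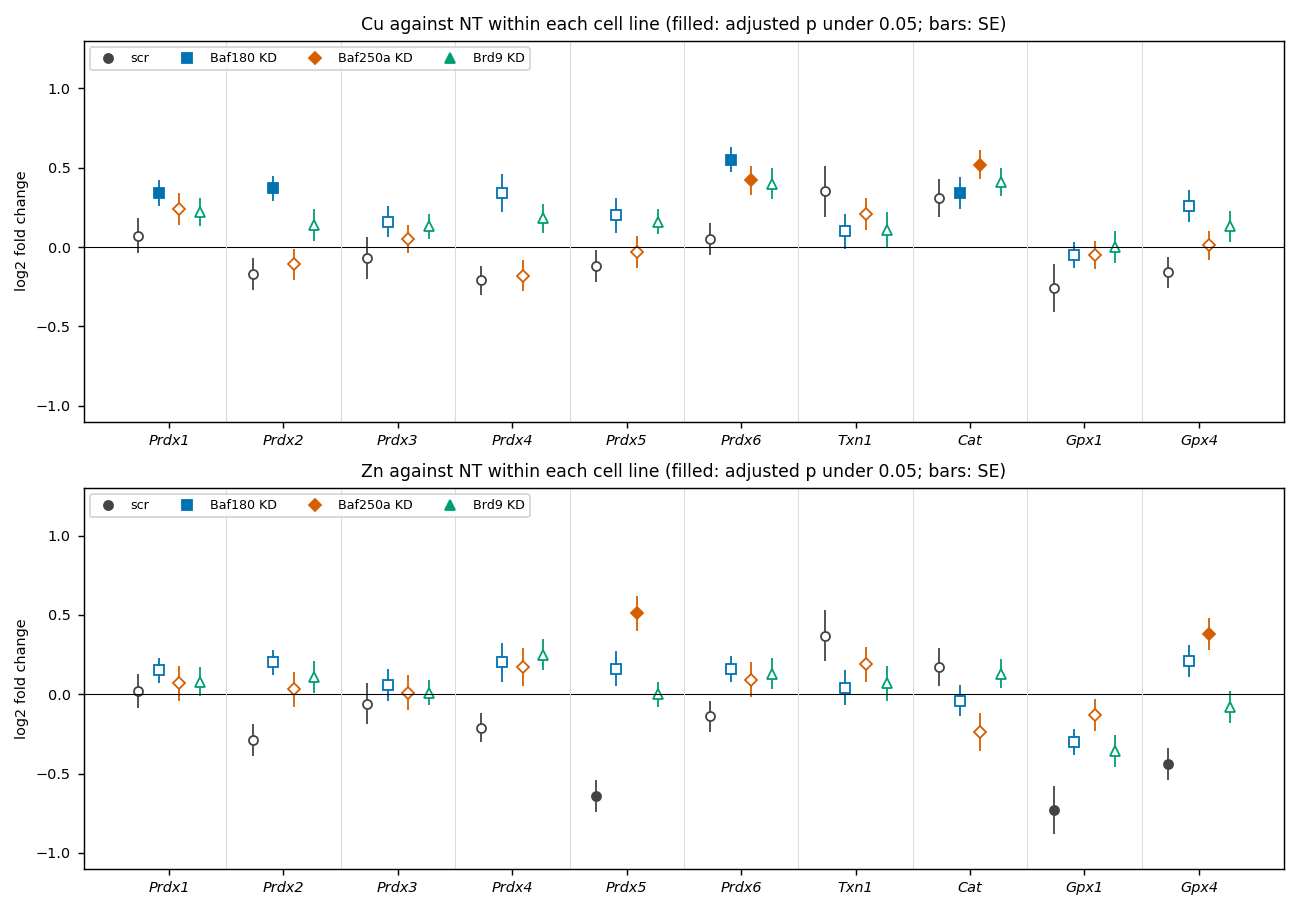
Log2 fold change of each member with Cu (upper panel) and Zn (lower panel) against NT in each cell line; bars are SE, filled symbols have an adjusted p under 0.05 and open symbols do not. *Cat* lay above 0 with Cu in all 4 lines (0.31 to 0.52), and *Gpx1* lay below 0 with Zn in all 4 lines (-0.73 to -0.13).

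The promoters of *Prdx1* and *Cat* are shown because both genes rose in the mean Cu response. RefSeq windows on GRCm38.p6, from 250 bases before to 50 bases after each start, were at hand for 9 of the 10 members. They were searched on both strands for the core of the antioxidant response element, TGACNNNGC, and for the cores of the metal response element, TGCACNC and TGCGCNC. Capitals mark a match to any of them.
*Prdx1*: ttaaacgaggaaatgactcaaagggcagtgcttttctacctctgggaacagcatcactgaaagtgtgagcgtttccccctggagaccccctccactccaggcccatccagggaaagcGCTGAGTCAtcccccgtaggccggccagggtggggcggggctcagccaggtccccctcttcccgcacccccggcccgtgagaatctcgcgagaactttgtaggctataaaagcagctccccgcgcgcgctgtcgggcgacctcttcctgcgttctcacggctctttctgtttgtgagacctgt
*Cat*: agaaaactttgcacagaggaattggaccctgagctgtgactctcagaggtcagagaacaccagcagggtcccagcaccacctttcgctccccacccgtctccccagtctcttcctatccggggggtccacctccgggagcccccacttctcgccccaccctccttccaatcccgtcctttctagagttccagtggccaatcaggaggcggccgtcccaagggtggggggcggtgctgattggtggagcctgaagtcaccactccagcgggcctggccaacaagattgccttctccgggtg
The *Prdx1* window is chr4:116685349-116685648 (+ strand) and holds 1 match to the antioxidant core, on the reverse strand. The match starts 133 bases before the RefSeq start that sets the window, which differs from the GENCODE gene start given above. The *Cat* window is chr2:103485104-103485403 (- strand) and holds no match to any of these letters. Among the 12 windows of the members, *Prdx4* had the only match to a metal core. Over all 32851 windows, 12.4% held the antioxidant core and 25.7% a metal core.

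Without added metal, *Prdx5* and *Gpx4* were lower than in scr in all 3 KD lines, *Prdx6* in *Baf180* and *Baf250a* KD, and *Cat* and *Prdx1* in *Baf180* KD. *Prdx5* (chr19:6906697-6910106, - strand) had 153 and 186 CPM in scr. It had 113 and 99.5 CPM in *Baf180* KD, 115 and 97.8 CPM in *Baf250a* KD and 117 and 110 CPM in *Brd9* KD, so that every KD library lay below both scr libraries. The log2 fold changes were -0.66 ± 0.12 (adjusted p = 0.00115), -0.67 ± 0.12 (adjusted p = 0.000474) and -0.56 ± 0.11 (adjusted p = 0.00893). *Gpx4* (chr10:80047166-80056439, + strand) had 167 and 191 CPM in scr and 123 to 141 CPM in the 6 untreated KD libraries. It fell by 0.44 ± 0.11 in *Baf180* KD (adjusted p = 0.00794), 0.49 ± 0.11 in *Baf250a* KD (adjusted p = 0.00169) and 0.36 ± 0.10 in *Brd9* KD (adjusted p = 0.033). The 3 comparisons share the 2 scr NT libraries, so they are not independent of each other. In them, 8, 9 and 5 of 10 members had KD and scr libraries without overlap, called or not. The share of all genes without such overlap was not computed, so these counts have no background to be read against.

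*Prdx6* was lower in *Baf180* KD (-0.40 ± 0.11, adjusted p = 0.0144) and in *Baf250a* KD (-0.43 ± 0.11, adjusted p = 0.0038), and its value in *Brd9* KD was -0.15 ± 0.11 (adjusted p = 0.321). *Cat* had 65.5 and 73.4 CPM in scr and 49.5 and 42.1 CPM in *Baf180* KD, a log2 fold change of -0.59 ± 0.12 (adjusted p = 0.00223). Neither *Cat* library of *Baf180* KD reached the lower scr library. *Prdx1* also fell in *Baf180* KD, by 0.46 ± 0.12 (adjusted p = 0.0115). In *Baf250a* KD, *Prdx3* (-0.37 ± 0.11) and *Txn1* (-0.35 ± 0.12) fell and *Gpx1* rose (0.36 ± 0.12, adjusted p = 0.0207), from 79.2 and 99.4 CPM to 118 and 112 CPM.

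In counts, 5 of 10 members were lower and 0 higher in *Baf180* KD, where 19.3% of all genes were lower and 21.7% higher (41.0% called). In *Baf250a* KD 5 were lower and 1 higher against 28.9% of all genes in each direction (57.8% called), and in *Brd9* KD 2 were lower and 0 higher against 14.1% lower and 15.1% higher (29.2% called). The median log2 fold change of the 10 members was -0.35, -0.31 and -0.17 in the 3 lines, and that of all genes tested was 0.03, 0.00 and 0.01. Of these calls, those of *Prdx5* in *Baf180* and *Baf250a* KD and of *Gpx4* in *Baf250a* KD held without any 1 library. Without *Baf180* KD NT replicate 2, the calls of *Prdx1* (-0.39), *Prdx6* (-0.34), *Cat* (-0.52) and *Gpx4* (-0.40) in that line were lost. *Gpx1* in *Baf250a* KD was not called without scr NT replicate 1 (0.21) or either *Baf250a* KD NT library (0.31 and 0.41). *Gpx4* in *Brd9* KD lost its call without scr NT replicate 2 (-0.28) or either *Brd9* KD library (-0.32 and -0.44), and *Prdx5* in *Brd9* KD without either *Brd9* KD library (-0.60 and -0.56). In *Baf250a* KD, *Prdx3* lost its call without either *Baf250a* KD NT library (-0.33 and -0.41), and *Prdx6* (-0.39) and *Txn1* (-0.24) without replicate 2. With the GC and length correction, the fall of *Gpx4* in *Brd9* KD was -0.14 (adjusted p = 0.266) and that of *Txn1* in *Baf250a* KD -0.19 (adjusted p = 0.0982). The corrected counts were 5 lower and 1 higher in *Baf180* KD, 5 and 2 in *Baf250a* KD and 1 and 1 in *Brd9* KD. The medians of the members were then -0.27, -0.22 and -0.12. Across genes, these 3 uncorrected fold changes had Spearman correlations of -0.29, -0.25 and -0.40 with GC content.

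*Gpx1* was lower with Zn. In scr, *Gpx1* (chr9:108338903-108340343, + strand) had 79.2 and 99.4 CPM without metal and 51.5 and 49.6 CPM with Zn. In *Baf180* KD it went from 113 and 102 CPM to 93.3 and 84.5, in *Baf250a* KD from 118 and 112 to 103 and 115, and in *Brd9* KD from 95.1 and 91.5 to 81.9 and 64.1. Averaged over the 4 lines the log2 fold change was -0.39 ± 0.07 (adjusted p = 0.00999), negative in 4 of 4 lines. *Gpx1* was the only member of 10 called in that comparison, where 0.284% of all genes were called. It was -0.37 (adjusted p = 0.00215) with the GC and length correction, and lost its call without *Baf250a* KD Zn replicate 1 (-0.37, adjusted p = 0.0935).

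Within scr, *Gpx1* (-0.73 ± 0.15, adjusted p = 0.028), *Prdx5* (-0.64 ± 0.10, adjusted p = 0.0275) and *Gpx4* (-0.44 ± 0.10, adjusted p = 0.0303) fell with Zn, 3 of 10 members against 17.6% of all genes. *Prdx5* went from 153 and 186 CPM to 105 and 99, and *Gpx4* from 167 and 191 CPM to 129 and 119. In this comparison 8 of 10 members were without overlap, so separation does not set these apart. The share of all genes without overlap was not computed here either. The 3 called members are those with the highest GC content. Across 11906 genes, the Zn fold change in scr had a Spearman correlation of -0.70 with GC content, and genes are not independent replicates. With the GC and length correction the values were -0.41 for *Gpx1* (adjusted p = 0.0945), -0.33 for *Prdx5* (adjusted p = 0.0725) and -0.06 for *Gpx4* (adjusted p = 0.624), and none was called. Fitting the replicate number as a block also ended these 3 calls (adjusted p = 0.0546, 0.0541 and 0.0603). Each call was lost without scr NT replicate 2, scr Zn replicate 1 or scr Zn replicate 2, with values of -0.75 to -0.59 for *Gpx1*, -0.68 to -0.52 for *Prdx5* and -0.49 to -0.37 for *Gpx4*.

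**Figure D3:**
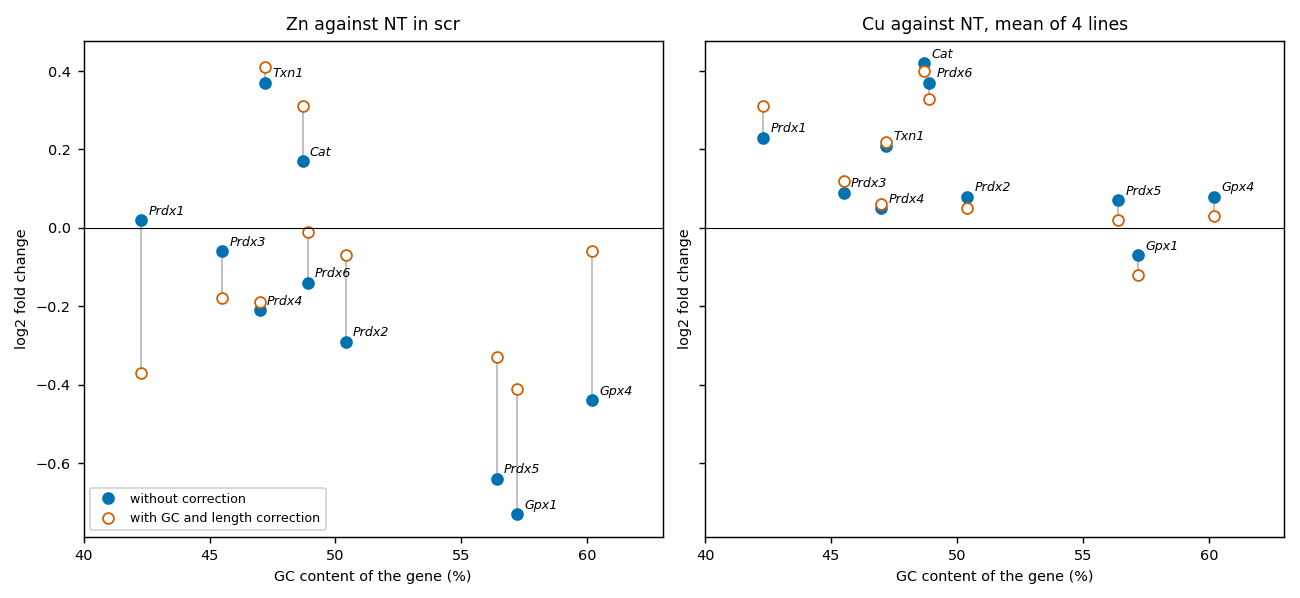
Log2 fold change of each member against the GC content of its longest transcript in percent, for Zn against NT in scr (left) and for Cu against NT averaged over 4 lines (right); filled points are without and open points with the GC and length correction, joined for each gene. *Gpx4* moved from -0.44 to -0.06 with the correction in scr Zn, and *Cat* from 0.42 to 0.40 in the mean Cu response.

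In *Baf250a* KD, 2 of these genes differed in the other direction. *Prdx5* was 0.51 ± 0.11 higher with Zn (adjusted p = 0.00251) and *Gpx4* 0.38 ± 0.10 higher (adjusted p = 0.0116), 2 of 10 members where 15.9% of all genes were called. The values of *Prdx5* were 115 and 97.8 CPM without metal and 159 and 115 CPM with Zn, which overlap, the 115 with Zn being the shallow library. Without *Baf250a* KD Zn replicate 1, which leaves that library alone, *Prdx5* was 0.13 and *Gpx4* 0.38, neither called. Both calls were also lost without *Baf250a* KD NT replicate 2 (0.37 and 0.33), that of *Gpx4* with the GC and length correction (0.29, adjusted p = 0.0758), and DESeq2 called neither (adjusted p = 0.155 and 0.165). Without the shallow library, 4 members were called. No member was called with Zn in *Baf180* KD (background 0.0197%) or *Brd9* KD (background 0.0334%) with edgeR. In each of these lines 2 members had an unadjusted p under 0.05, a share not computed over all genes. DESeq2 called 0 members in both, against 0.905% and 0.037% of all genes. With the replicate block edgeR called 1 member in *Baf180* KD, lower with Zn, and 4.31% of all genes. In *Brd9* KD the block gave 0 members and 0.02% of all genes.

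The metal responses of the KD lines were then compared with those of scr in one fit over all 24 libraries. With Zn, the response of *Prdx5* was higher than in scr by 0.91 ± 0.18 in *Baf180* KD (adjusted p = 0.00181), 1.20 ± 0.19 in *Baf250a* KD (adjusted p = 0.00029) and 0.75 ± 0.18 in *Brd9* KD (adjusted p = 0.0258). That of *Gpx4* was higher by 0.76 ± 0.17 in *Baf180* KD (adjusted p = 0.00295) and 0.90 ± 0.18 in *Baf250a* KD (adjusted p = 0.000945). In all, 5 members differed in *Baf180* KD (28.7% of all genes), 4 in *Baf250a* KD (30.5%) and 2 in *Brd9* KD (11.1%), each with the higher response in the KD. The difference correlated with GC content across 12695 genes (Spearman rho of 0.65, 0.56 and 0.62). With the correction, *Prdx5* in *Baf180* KD (0.47, adjusted p = 0.039) and *Baf250a* KD (0.79, adjusted p = 0.00126) and *Gpx4* in *Baf250a* KD (0.44, adjusted p = 0.0205) stayed called, and the other 8 differences with Zn did not. Among those, *Gpx1* was 0.10 and *Gpx4* 0.25 in *Baf180* KD, and *Gpx1* 0.33 in *Baf250a* KD. The correction also gained calls in *Baf250a* KD, where it gave 4 members, 3 higher and 1 lower (17% of all genes). It gave 1 member in *Baf180* KD (7.35% of all genes) and 0 in *Brd9* KD (0.00605%). *Prdx5* in *Baf250a* KD lost its call without *Baf250a* KD Zn replicate 1 (0.83), and in *Brd9* KD without scr NT replicate 2 (0.59), either scr Zn library (0.79 and 0.70), *Brd9* KD NT replicate 2 (0.70) or *Brd9* KD Zn replicate 1 (0.60).

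With Cu, 3 members responded more in *Baf180* KD than in scr, *Prdx4* (0.60 ± 0.16, adjusted p = 0.0225), *Prdx2* (0.59 ± 0.16, adjusted p = 0.0241) and *Prdx6* (0.55 ± 0.16, adjusted p = 0.0285), where 12.8% of all genes differed. *Prdx4* (chrX:155323918-155340754, - strand) went from 49.6 and 50.9 CPM to 72.7 and 57.5 in *Baf180* KD and from 54.6 and 59.3 CPM to 51.0 and 46.3 in scr. *Prdx2* (chr8:84969587-84974834, + strand) went from 267 and 240 CPM to 347 and 324 in *Baf180* KD and from 240 and 291 CPM to 242 and 227 in scr. With the GC and length correction the 3 differences were 0.55, 0.37 and 0.47, and none was called (adjusted p = 0.0756, 0.125 and 0.0551). All 3 were lost without scr NT replicate 2 (0.54, 0.43 and 0.44), scr Cu replicate 2 (0.53, 0.54 and 0.44), *Baf180* KD NT replicate 2 (0.62, 0.51 and 0.45) or *Baf180* KD Cu replicate 1 (0.42, 0.54 and 0.57). With edgeR no member was called for *Baf250a* KD (background 0.0121%) or *Brd9* KD (background 0.0363%). At an unadjusted p under 0.05 there were 1 and 4 members, a share not computed over all genes. DESeq2 called 0 members in both, against 0.115% and 0.201% of all genes.

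With Zn, *Gpx1* and *Prdx2* were higher in all 3 KD lines than in scr. With Cu, both were higher in *Baf180* and *Baf250a* KD and not called in *Brd9* KD (0.38 and 0.30, adjusted p = 0.142 and 0.0982). *Cat* was lower in *Baf180* KD in both metals. With Zn, *Gpx1* was higher than in scr by 0.75 ± 0.07 in *Baf180* KD (adjusted p = 3.98e-05), 1.03 ± 0.09 in *Baf250a* KD (adjusted p = 7.07e-16) and 0.50 ± 0.10 in *Brd9* KD (adjusted p = 0.00911). These calls held with the correction (0.48, 0.86 and 0.37) and without any 1 library. *Prdx2* had 207 and 201 CPM in scr Zn and 246 to 327 CPM in the 6 KD Zn libraries, with log2 fold changes of 0.47, 0.62 and 0.40. Its call was lost without either scr Zn library in *Baf250a* KD (adjusted p = 0.0601 and 0.0757) and in *Brd9* KD (adjusted p = 0.0724 and 0.116), and with the GC and length correction in *Baf250a* KD (0.42, adjusted p = 0.0568). *Cat* had 77.9 and 69.7 CPM in scr Zn against 45.7 and 44.3 in *Baf180* KD Zn, a log2 fold change of -0.77 ± 0.07 (adjusted p = 5.62e-05) that held in every alternative and without any 1 library. In *Baf250a* KD Zn *Cat* was at -0.62 ± 0.10 (adjusted p = 3.66e-07), but at -0.31 and not called without Zn replicate 1, and DESeq2 did not call it (adjusted p = 0.0858). It also lost its call without scr Zn replicate 1 (-0.47) or replicate 2 (-0.61).

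In Zn, 8 of 10 members were called in *Baf180* KD, 5 higher and 3 lower, where 49.9% of all genes were called. That count was 5 with the GC and length correction (47.9% of all genes), 6 with DESeq2 (36%) and 9 with the replicate block (56.9%). Without scr Zn replicate 1 or replicate 2, the calls of *Prdx4* (0.23 and 0.32), *Prdx5* (0.21 and 0.13) and *Gpx4* (0.29 and 0.19) were lost. In *Baf250a* KD 8 were called, again 5 higher and 3 lower (57.5% of all genes), and in *Brd9* KD 3 were called, all higher (23.2% of all genes). The *Brd9* KD count was 1 without either scr Zn library, 5 without *Brd9* KD Zn replicate 1, 6 without replicate 2 and 4 (3 higher, 1 lower) with the GC and length correction. The *Baf250a* KD count was 1 without either scr Zn library, 3 without *Baf250a* KD Zn replicate 1 and 10 without the shallow replicate 2, and DESeq2 called 3. With the GC and length correction, 4 of these calls changed direction and none of the 4 was called: *Prdx1* (-0.30 to 0.03), *Prdx5* (0.17 to -0.13) and *Gpx4* (0.24 to -0.10) in *Baf180* KD, and *Prdx3* (-0.21 to 0.01) in *Baf250a* KD. In Cu, 3 of 10 members were called in *Baf180* KD (24.9% of all genes), 4 in *Baf250a* KD (41.2%) and none in *Brd9* KD (12.2%). In *Brd9* KD 3 members had an unadjusted p under 0.05, a share not computed over all genes. DESeq2 called 0 there, against 13.5% of all genes. The *Brd9* KD count in Cu was 4 without scr Cu replicate 1, 2 without scr Cu replicate 2 and 1 with the GC and length correction. *Cat* was again lower in *Baf180* KD (-0.53 ± 0.14, adjusted p = 0.0167), and *Gpx1* was higher in *Baf180* KD (0.52 ± 0.15) and *Baf250a* KD (0.61 ± 0.15). Each call in Cu was lost without either Cu library of its KD line, and *Gpx1* in *Baf180* KD also without scr Cu replicate 2 (0.32).

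**Figure D4:**
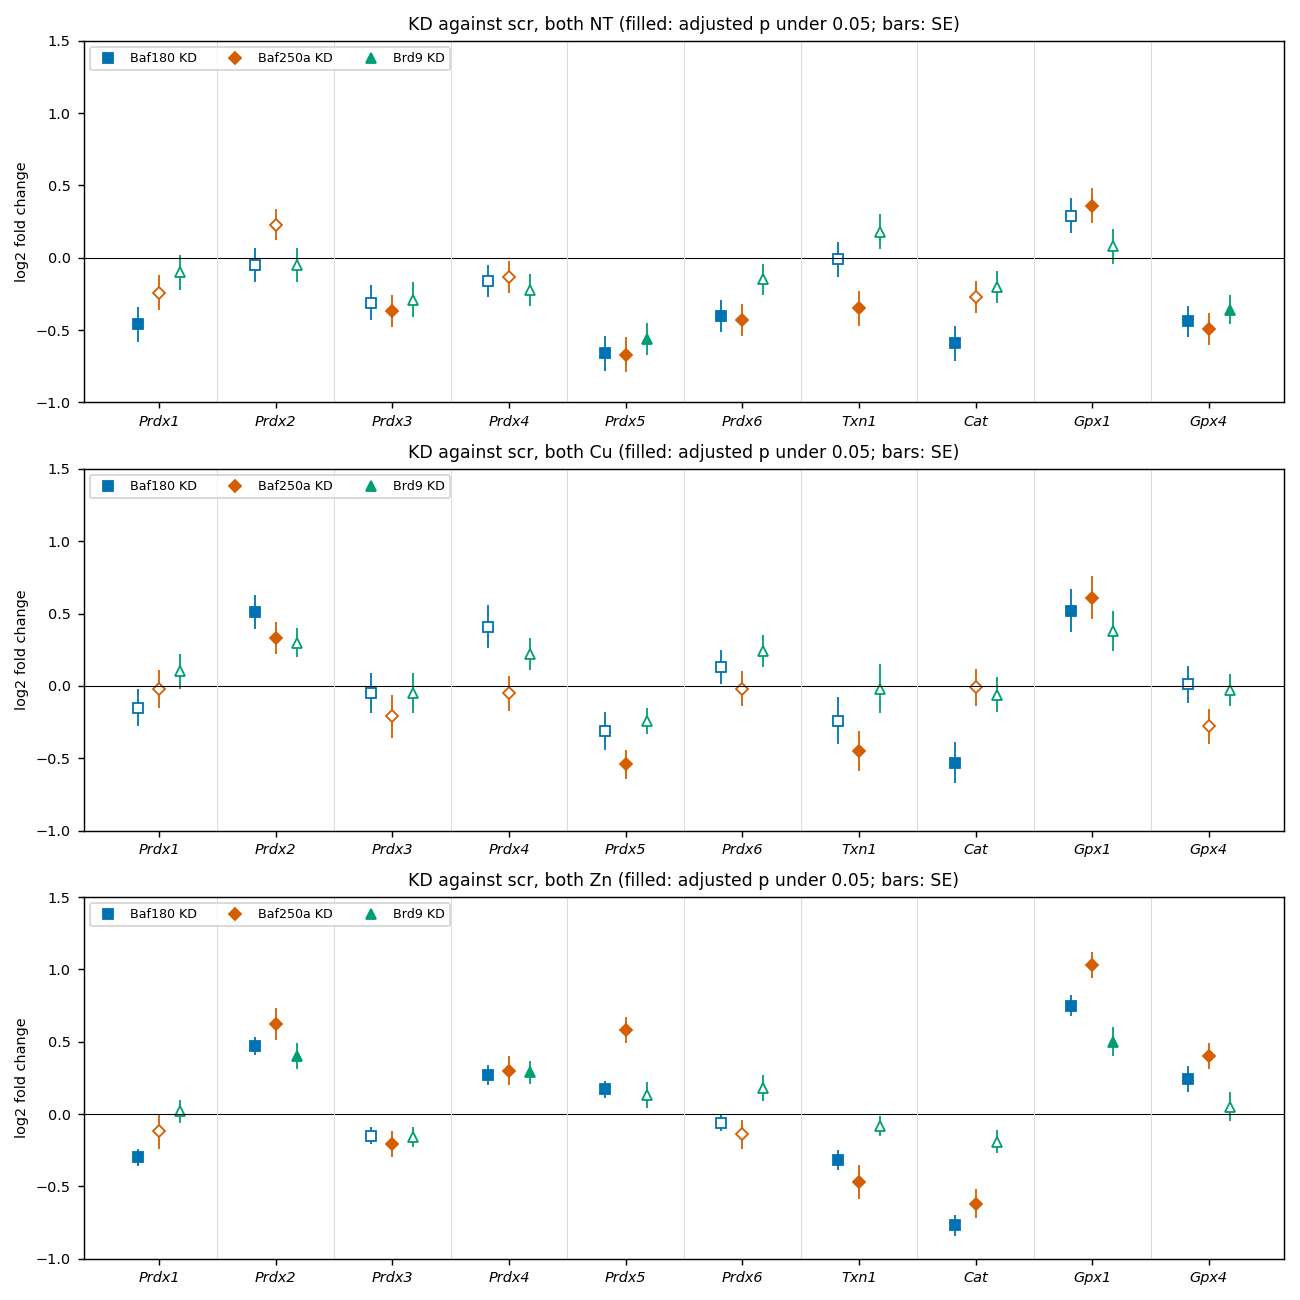
Log2 fold change of each member in each KD line against scr, both without metal (top), with Cu (middle) or with Zn (bottom); bars are SE, filled symbols have an adjusted p under 0.05 and open symbols do not. *Prdx5* and *Gpx4* lay below 0 in all 3 KD lines without metal and above 0 in all 3 with Zn (with the GC and length correction, below 0 in *Baf180* KD with Zn, -0.13 and -0.10), while *Cat* in *Baf180* KD lay at -0.59, -0.53 and -0.77.

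Over all treatments, 1 of 10 members separated the 6 *Baf180* KD libraries from the 6 scr libraries, *Cat* (42.1 to 59.5 CPM against 65.5 to 95.1 CPM), where 23.4% of all genes did so. For *Baf250a* KD it was *Gpx1* (103 to 118 CPM against 49.6 to 99.4 CPM), where 27.4% of all genes did so, and for *Brd9* KD none, against 15.7%. Over the 12 condition means, the members with the most similar profiles were *Prdx5* and *Gpx4* (Pearson r = 0.92), *Prdx1* and *Cat* (r = 0.90), *Prdx1* and *Prdx6* (r = 0.82) and *Prdx2* and *Gpx1* (r = 0.80). *Txn1* and *Gpx1* ran against each other (r = -0.69). These are descriptions over conditions that share libraries and base composition. Among all genes that passed the filter, *Zswim8* (r = 0.914), *Ctf1* (0.908), *Mapk7* (0.904) and *Zfp651* (0.901) had profiles among those most like that of *Gpx1* over the same 12 means.

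Of 17 genes of thioredoxin and glutathione recycling, which restore the members' electron donors, 7 rose and 0 fell in the mean Cu response (41.2% called, against 7.86% of all genes). They included *Srxn1*, sulfiredoxin, which repairs overoxidised peroxiredoxins (0.82 ± 0.06, adjusted p = 1.75e-08), and *Gclc*, the catalytic subunit of the rate-limiting enzyme of glutathione synthesis (0.56 ± 0.04, adjusted p = 1.75e-08). *Srxn1* went from 111 and 98.1 CPM to 219 and 198 in *Baf180* KD, from 117 and 105 to 201 and 208 in *Baf250a* KD, from 143 and 129 to 265 and 267 in *Brd9* KD, and from 180 and 193 to 263 and 240 in scr. In scr its log2 fold change was 0.45 ± 0.09 (adjusted p = 0.394), not called. Without metal, 10 of the 17 were lower and 3 higher in *Baf180* KD, 11 lower and 5 higher in *Baf250a* KD and 8 lower and 2 higher in *Brd9* KD. That is 76.5%, 94.1% and 58.8% called, against 41.0%, 57.8% and 29.2% of all genes. Those of lowest adjusted p were *Srxn1* (-0.82) and *Gss* (-0.94), glutathione synthetase, in *Baf180* KD, *Glrx* (1.85), a glutaredoxin, and *Txnrd1* (-1.17), the cytosolic thioredoxin reductase, in *Baf250a* KD, and *Txnip* (-1.11), an inhibitor of thioredoxin, and *Gclm* (0.68) in *Brd9* KD.

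Of 6 other glutathione peroxidases only *Gpx3* and *Gpx8* passed the filter, and both were higher in every untreated KD line. *Gpx3*, the secreted enzyme, had log2 fold changes of 1.22, 2.29 and 1.20 in *Baf180*, *Baf250a* and *Brd9* KD, at a low level of 2.34 to 19.8 CPM over the 24 libraries. *Gpx8*, of the endoplasmic reticulum, had 1.06, 1.26 and 0.51. Thus *Gpx3* and *Gpx8* were higher in the same comparisons in which *Gpx4* was lower. Of 6 genes for selenocysteine insertion, 2, 3 and 1 were lower and none higher in the 3 lines, among them *Trnau1ap* (-0.58, -0.81 and -0.42), which binds the selenocysteine tRNA, and *Sephs2* in *Baf180* KD (-0.39) and *Baf250a* KD (-0.72), which makes the selenium donor. The shares called (2, 3 and 1 of 6) were below those of all genes. Of 16 peroxisome biogenesis genes, which build the organelle that holds catalase, 5, 5 and 4 were lower and 0, 2 and 0 higher (31.2%, 43.8% and 25.0% called, again below all genes), with *Pex14*, part of the import machinery, at -0.70 in *Baf180* KD and -0.62 in *Baf250a* KD. Of 8 sources of hydrogen peroxide, 3, 4 and 2 were higher and 3, 3 and 2 lower (6, 7 and 4 of 8 called), with the extracellular dismutase *Sod3* at 1.76, 2.52 and 1.33. Of 7 methionine sulfoxide reductases and sestrins, which mend oxidised methionine or restrain growth under stress, 3, 4 and 2 were higher and 2, 3 and 2 lower (5, 7 and 4 of 7 called). For the sources and for the reductases and sestrins, the shares called were above those of all genes in each line (41.0%, 57.8% and 29.2%).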

How the data were processed

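The authors digested ribosomal RNA with RNase H, made strand-specific paired-end libraries (NEBNext Ultra II Directional), mapped them with STAR to mm10 without multi-mapping reads, and obtained gene-level counts of fragments with both ends mapped from featureCounts in reverse-stranded mode. The deposited values are these counts, whole numbers for 55291 symbols, not normalized. Tables of the authors' DESeq2 comparisons (fold changes and p-values) were not used. Labels name primary myoblasts and a treatment tag contradicts the titles. The methods' C2C12 lines and the titles were followed.

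Counts were fitted with edgeR 4.0.16's quasi-likelihood test in R 4.3.3 after TMM scaling and filterByExpr, with Benjamini-Hochberg adjustment over all genes tested and calls at an adjusted p under 0.05. Metal responses used the 6 libraries of a line, KD comparisons the 4 libraries compared, and differences and means of responses all 24. Replicate numbers were not used as pairs. CPM are scaled over all 24 libraries, given per library. Alternatives were RLE size factors, genes with at least 1 count, a GC and length correction (spline with 5 degrees of freedom per library), the replicate block, other libraries in the fit, DESeq2 1.42.0 and leaving out each library. With 2 replicates, a left-out library leaves its group 1 library, assumed to vary like the others. The script was tested on simulated data. Annotation was GENCODE M21, found for 53292 symbols. Named genes were the members, at most the 2 called genes of lowest adjusted p per other list in each untreated KD comparison and metal response, shown here for some lists and comparisons, and the 5 genes most like *Gpx1*, of which 1 is not reported here. *Gpx3*, *Gpx8*, *Trnau1ap* and *Sod3* values are given across all lines for comparison. The members and lists were chosen with earlier results of these data known.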

Additional observations from a re-analysis of the deposited data

Results flagged for a closer look

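The metal response of a member differed between a KD line and scr, by the test of the difference itself in the fit over all 24 libraries, in 14 cases. With Cu in *Baf180* KD, the log2 response was higher than in scr by 0.59 for *Prdx2*, 0.60 for *Prdx4* and 0.55 for *Prdx6*. With Zn in *Baf180* KD it was higher by 0.60 for *Prdx2*, 0.52 for *Prdx4*, 0.91 for *Prdx5*, 0.54 for *Gpx1* and 0.76 for *Gpx4*. With Zn in *Baf250a* KD it was higher by 0.48 for *Prdx4*, 1.20 for *Prdx5*, 0.70 for *Gpx1* and 0.90 for *Gpx4*. With Zn in *Brd9* KD it was higher by 0.56 for *Prdx4* and 0.75 for *Prdx5*. With the GC and length correction these values were, in the same order, 0.37, 0.55 and 0.47 for Cu in *Baf180* KD, 0.32, 0.48, 0.47, 0.10 and 0.25 for Zn in *Baf180* KD, 0.46, 0.79, 0.33 and 0.44 in *Baf250a* KD and 0.54 and 0.41 in *Brd9* KD. Of the 14, only *Prdx5* in *Baf180* and *Baf250a* KD and *Gpx4* in *Baf250a* KD, all with Zn, were then called. *Prdx4* with Zn in *Baf250a* KD kept its call in 1 of 6 other settings. It lost its call without 7 of the 8 libraries of its groups in both *Baf180* and *Baf250a* KD, and *Gpx1* in *Baf180* KD without 5 of 8. The 6 comparisons share the scr NT libraries, and those of a metal share its scr libraries, so the cases are not independent.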

How the results depend on the processing

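The 8 metal responses held 11 calls of members. There were 17 when genes with at least 1 count were kept, 4 with the GC and length correction, 11 with the replicate block and 7 to 13 when each library was left out (7 without *Baf180* KD NT replicate 2). The 3 untreated KD comparisons held 13 calls, 12 with the block and 9 to 17 when each library was left out. The 6 KD comparisons within a metal held 26, 27 with the block and 14 to 31 when each library was left out (14 without scr Zn replicate 1 or replicate 2). The 6 differences between metal responses held 14, 5 with the GC and length correction, 17 with the block and 4 to 20 when each library was left out. They fell to 4 without scr NT replicate 2, 8 without *Baf180* KD NT replicate 2 and 9 without scr Zn replicate 1 or replicate 2. The 2 mean responses held 4, again 4 with the block and 3 to 4 when each library was left out.

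Deviations of same-numbered libraries correlated between -0.18 and 0.25. With 2 pairs in each comparison this cannot decide whether the numbers mark pairs, and the main fits did not take them as pairs. With the block, the share of all genes called went from 13.8% to 25.5% for Cu in *Baf180* KD. It went from 0.0197% to 4.31% for Zn in *Baf180* KD and from 17.6% to 0.0933% for Zn in scr. Of the 68 calls of members, 15 held without each library in turn, 31 in the other alternatives and 12 in both. With the GC and length correction 4 called values changed sign, all in Zn and none called then: *Prdx1* (0.03), *Prdx5* (-0.13) and *Gpx4* (-0.10) in *Baf180* KD and *Prdx3* (0.01) in *Baf250a* KD. Their cause was not tested. Over the 2960 alternative values, 220 lost a call, the 4 above among them, 88 gained one and 169 changed sign without a call in either setting. Depth limits *Baf250a* KD Zn, where 1 library had 495778 counts.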
